A study of Mus musculus with 18 samples.

Results

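NF-kB subunits and their inhibitors were described here through the transcripts of 10 genes among the 38887 genes measured in bone marrow-derived macrophages (BMMs). The genes were taken by symbol, and comprised the 5 subunits Nfkb1, Nfkb2, Rel, Rela and Relb, the 3 cytoplasmic IkB genes Nfkbia, Nfkbib and Nfkbie, and the 2 nuclear IkB genes Nfkbiz and Bcl3. NF-kB is a family of dimeric transcription factors that resting macrophages hold in the cytoplasm, bound to IkB proteins. Lipopolysaccharide (LPS), a component of the outer membrane of Gram-negative bacteria, acts through Toll-like receptor signaling on the IkB kinase complex, which marks IkB for degradation so that dimers such as RelA with p50 enter the nucleus. Several genes of the family are themselves NF-kB targets, and the newly made IkB alpha protein helps to end the signal.

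All cells came from female C57BL/6J mice that carried Cre recombinase under the endogenous Lyz2 promoter of myeloid cells, in all 3 genotypes. WT mice had this Cre alone. GILZ KO mice additionally carried loxP sites around exon 6 of Tsc22d3, the gene of the glucocorticoid-induced leucine zipper (GILZ), and GILZ TG mice a Tsc22d3 cDNA in the ROSA26 locus behind a loxP-flanked stop cassette. The mice were 10 to 23 weeks old according to the methods of the study, marrow was differentiated for 6 days with 50 ng/ml M-CSF, and BMMs were left untreated or received 100 ng/ml LPS for 4 h. The groups held 3 libraries each, which makes 18 in all. Within a group these are independent preparations per the study. Whether untreated and LPS libraries share mice is not stated. Total expected counts lay between 14583055 and 38557029 per library. The targeted gene followed the labels, with Tsc22d3 at 14.9 to 18.8 TPM in untreated WT, 1.89 to 2.81 in GILZ KO and 152 to 160 in GILZ TG, and at 4.56 to 5.81, 2.50 to 3.28 and 127 to 141 TPM after LPS. TPM is a level scaled by transcript length and by the total of its library. The 8 macrophage markers Adgre1, Csf1r, Cd68, Itgam, Mertk, Fcgr1, C1qa and C1qb were all detected and summed to between 3876 and 5129 TPM. Libraries 1 and 2 of GILZ TG stood apart under both treatments in markers of other cells. The 7 stromal fibroblast markers summed to 80.9 to 118 TPM there and to 4.79 to 22.4 in the other libraries, the 7 B lineage markers to 79.5 to 153 and 16.8 to 35.9, and the 7 neutrophil lineage markers to 187 to 516 and 20.7 to 83.5. The 5 T cell markers stayed below 1 TPM in sum in every library, as did the 4 dendritic and the 4 erythroid markers, and the 4 endothelial markers summed to 3.33 to 13.3 TPM. Named differences that involve GILZ TG are therefore also given without these libraries, an alternative chosen after seeing the data. It leaves GILZ TG with library 3 alone in each treatment, so that the spread comes from the other groups and the lone library is assumed to vary like them. A call gained or lost this way rests on 1 library.

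RefSeq promoter windows (GRCm38.p6), which run from 250 bases before to 50 after a start site, were found for 7 of the 10 genes and not for Nfkb1, Relb and Nfkbiz. They were searched for the kB consensus, the 10-base motif bound by NF-kB dimers, on both strands. At least 1 match lay in the windows of 5 of the 7 genes, namely Nfkb2, Nfkbia, Nfkbie, Rel and Bcl3, and none in those of Rela and Nfkbib. By window, 7 of 9 held a match, against 8.46% of all 32851 windows, and 9.55% of all 27025 genes had a window with a match. Nfkb2 has 3 windows, of which the 2 farther downstream overlap by 65 bases and share a match. The last 120 bases before the start site are given for the genes with a match there (for Nfkb2 from its first window) and, as the gene with the smallest LPS response, for Rela. Matches are in capitals, and overlapping matches run together.
Nfkbia, chr12:55492648-55492767, minus strand: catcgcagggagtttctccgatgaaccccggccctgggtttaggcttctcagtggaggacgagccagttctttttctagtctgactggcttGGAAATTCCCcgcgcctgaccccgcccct
Nfkb2, first window, chr19:46304617-46304736, plus strand: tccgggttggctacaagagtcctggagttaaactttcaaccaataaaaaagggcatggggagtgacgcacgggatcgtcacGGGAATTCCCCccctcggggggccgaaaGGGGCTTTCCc
Rel, chr11:23770970-23771089, minus strand: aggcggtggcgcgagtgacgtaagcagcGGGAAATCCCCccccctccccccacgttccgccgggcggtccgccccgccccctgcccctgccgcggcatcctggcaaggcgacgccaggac
Nfkbie, chr17:45555580-45555699, plus strand: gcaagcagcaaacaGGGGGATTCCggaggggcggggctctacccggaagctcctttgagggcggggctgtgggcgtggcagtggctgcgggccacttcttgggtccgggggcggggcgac
Rela, chr19:5637421-5637540, plus strand: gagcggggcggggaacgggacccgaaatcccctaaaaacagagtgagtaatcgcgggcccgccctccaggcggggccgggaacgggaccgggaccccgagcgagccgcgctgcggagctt
The match of Nfkbia ended 19 bases before the start site and that of Nfkbie 96 bases before it. In Nfkb2, 2 overlapping matches were followed by a further one that ended 1 base before the start site. The single match of Bcl3 lay behind its start site. A match describes the letters only, and says nothing on binding in these cells. In WT, the log2 fold changes with LPS, described below, were 2.30 for Nfkbib and 0.92 for Rela, both without a match. With a match, they were 1.82 for Bcl3, 2.02 for Nfkbie, 2.33 for Nfkb2, 2.47 for Nfkbia and 3.51 for Rel. A relation of matches to the response was not tested.

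To see how LPS changed the family, LPS-treated and untreated BMMs were compared within each genotype. All 10 genes rose in WT, in GILZ KO and in GILZ TG, from 1.9-fold for Rela to 37.7-fold for Nfkbiz in WT. The adjusted p was at most 2.83e-10 in each of the 30 tests (edgeR quasi-likelihood test, Benjamini-Hochberg over 13169 genes, 18 libraries). The background was high, since 33.5% of all genes passed as higher in WT, 33.2% in GILZ KO and 33.6% in GILZ TG. In GILZ TG library 3 alone, 1 LPS library against 1 untreated one, the log2 fold changes ran from 1.02 for Rela to 5.34 for Nfkbiz. In bulk RNA, a change in the number of cells of a type and a change in the RNA per cell cannot be told apart. In TPM, the lowest LPS library lay above the highest untreated one for 10 of 10 genes in each genotype, which held for 16.3%, 16.4% and 15.7% of all genes. The median log2 fold change of the 10 genes was 2.31 in WT, 2.45 in GILZ KO and 2.36 in GILZ TG, against -0.02 over all genes in each. The size depended on the scale. Normalized by TMM the median gene does not move, whereas on log2(TPM + 1) the median of all genes was lower after LPS by 0.51 in WT, 0.52 in GILZ KO and 0.51 in GILZ TG, and the share of calls that were higher fell from 48.9% to 19.8% in WT, from 48.4% to 18.8% in GILZ KO and from 48.9% to 19.3% in GILZ TG. The 10 genes passed as higher on that scale too (limma), with medians of 1.66, 1.81 and 1.71. LPS fold changes of the 10 genes are by TMM unless a scale is named, and exceed the ratios of the TPM values given with them. In WT the log2 ratio of mean TPM was 2.33 for Nfkb1, 1.84 for Nfkbia, 1.67 for Nfkbib and 4.6 for Nfkbiz. By TMM these were 3.00, 2.47, 2.30 and 5.24.

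**Figure D1:**
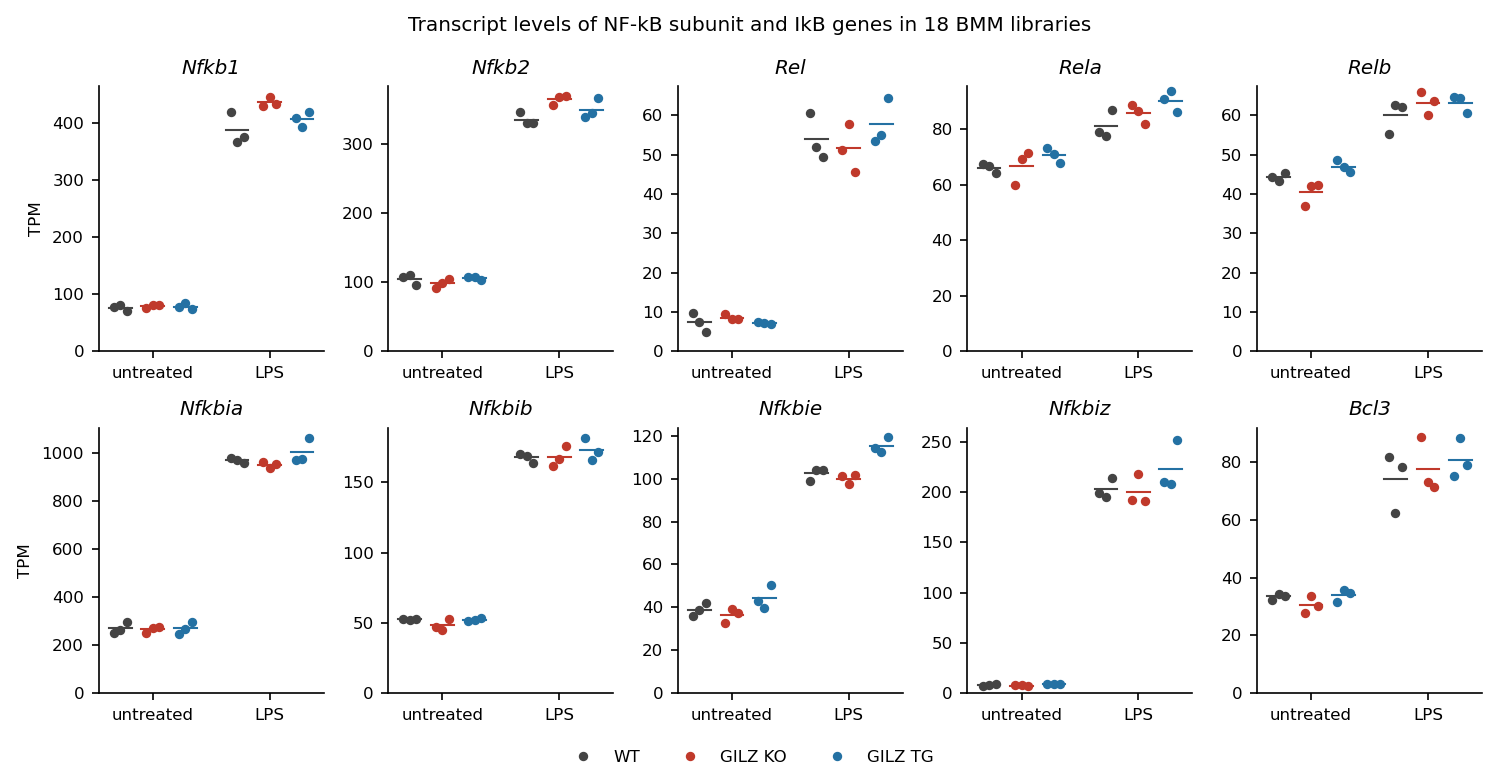
TPM of the 10 genes (y axes start at 0 and differ between panels) in the 9 untreated and 9 LPS libraries; points are libraries, lines the means of the 3 libraries of a genotype. For each gene all LPS libraries lie above all untreated ones, by the least for Rela (77.7 TPM against 73.4) and by the most for Nfkbiz (192 against 9.75).

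Among the subunits, Nfkb1 and Nfkb2 encode the precursors of p50 and p52, which bind DNA without a transactivation domain of their own. Untreated, Nfkb1 stood at 78.0, 80.8 and 71.4 TPM in WT, 75.9, 81.4 and 81.0 in GILZ KO and 77.9, 83.9 and 73.9 in GILZ TG. After LPS it stood at 418, 366 and 376 TPM in WT, 430, 445 and 432 in GILZ KO and 409, 393 and 418 in GILZ TG. The untreated genotypes overlapped, while after LPS the 3 GILZ KO libraries were the highest of the 9. The fold change was 7.98 in WT (log2 3.00 ± 0.07 SE), 8.54 in GILZ KO and 8.18 in GILZ TG. Nfkb2 was the most abundant subunit without LPS, between 92.5 and 110 TPM over the 9 libraries, and reached 330 to 370 TPM with it. Its fold change was smaller than that of Nfkb1, at 5.02 in WT, 5.75 in GILZ KO and 5.13 in GILZ TG, so that Nfkb1 lay above Nfkb2 in all 3 LPS groups with no overlap.

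Rel encodes c-Rel, a transactivating subunit best known from lymphoid and myeloid cells. It was the lowest subunit at rest, with 9.69, 7.44 and 4.96 TPM in WT, 9.54, 8.11 and 8.16 in GILZ KO and 7.46, 7.22 and 7.0 in GILZ TG. After LPS the values were 60.7, 51.9 and 49.3 TPM in WT, 51.2, 57.9 and 45.7 in GILZ KO and 53.6, 55.0 and 64.5 in GILZ TG. Rel thus had the widest spread among untreated WT libraries of the 10 genes (coefficient of variation 32.1%), and the genotypes overlapped after LPS. The fold change was 11.4 in WT (log2 3.51 ± 0.17 SE), 9.29 in GILZ KO and 12.4 in GILZ TG, second to Nfkbiz in each genotype.

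Rela, which encodes the p65 subunit of the classical dimer, and Relb, the partner of p52 in the alternative pathway, responded least. Rela was at 67.5, 66.7 and 64.4 TPM in untreated WT, 59.8, 69.2 and 71.5 in GILZ KO and 73.4, 71.0 and 67.7 in GILZ TG. With LPS it was at 79.0, 77.7 and 87.0 TPM in WT, 88.7, 86.4 and 82.0 in GILZ KO and 90.8, 93.9 and 86.4 in GILZ TG. The LPS libraries lay above the untreated ones by a narrow margin, the lowest of the former being 1.06 times the highest of the latter. Its log2 fold change was 0.92 ± 0.06 SE in WT by TMM and 0.29 on log2(TPM + 1), with 17.1% of genes at or above its rank in WT. Relb was at 37.1 to 48.6 TPM untreated and at 55.3 to 66.1 after LPS, with log2 fold changes of 1.07 in WT, 1.28 in GILZ KO and 1.06 in GILZ TG, and of 0.43, 0.63 and 0.42 on log2(TPM + 1).

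**Figure D2:**
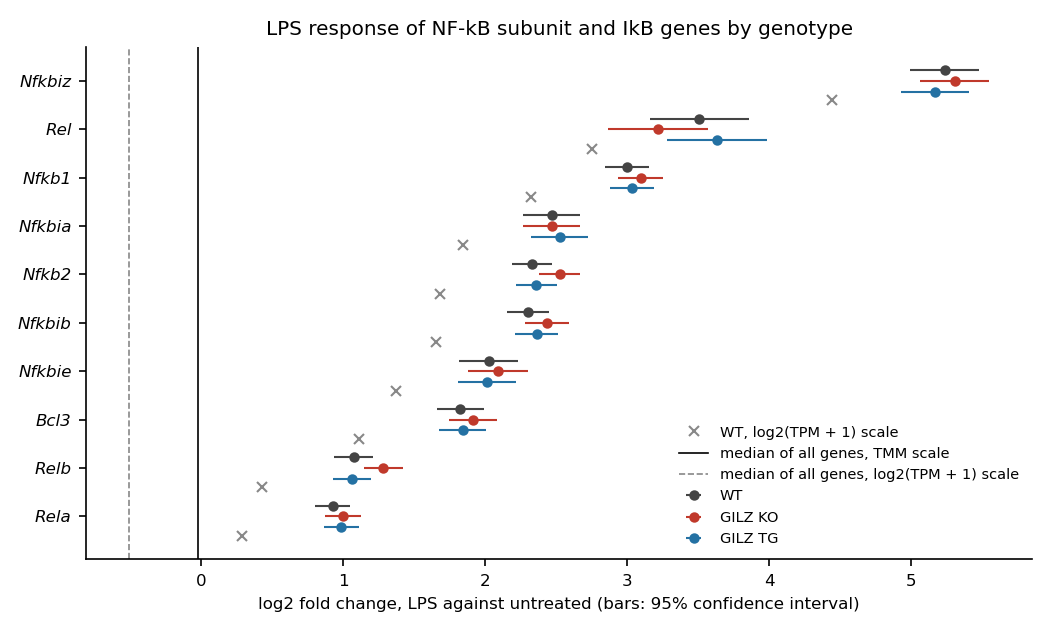
log2 fold change of LPS against untreated BMMs for each gene and genotype (x axis; points are edgeR estimates with 95% confidence intervals from 18 libraries; crosses are WT on log2(TPM + 1)). All intervals lie right of the median of all genes, drawn for both scales, and Nfkbiz stands at 5.17 to 5.31 while Rela stands at 0.92 to 1.00.

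The unequal responses shifted the make-up of the family. Shares within a library do not depend on the scaling between libraries and were tested with an exact permutation test, two-sided, with treatment labels exchanged within genotypes over 9 untreated and 9 LPS libraries. In 11 such measures the smallest p this test can give is 0.00025, which is an adjusted p of 0.000306. The share of Nfkb1 among the 5 subunits rose from 24.7 to 27.6% of their summed TPM to 41.2 to 43.7%, and that of Rel from 1.76 to 3.47% to 4.6 to 6.47%. The shares of Rela and Relb fell, from 21.6 to 23.3% to 8.23 to 9.87% and from 13.5 to 16.1% to 5.76 to 7.06%. The share of Nfkb2 moved little, 33.0 to 35.8% untreated and 35.5 to 37.3% with LPS, although the small rise passed as well. Each of these 5 shares reached the smallest p, and did so too without GILZ TG libraries 1 and 2, where the smallest p is 0.0025. The ratio of Rel to Rela went from 0.0771 to 0.160 up to 0.557 to 0.768 (p = 0.00025, exact permutation test).

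**Figure D3:**
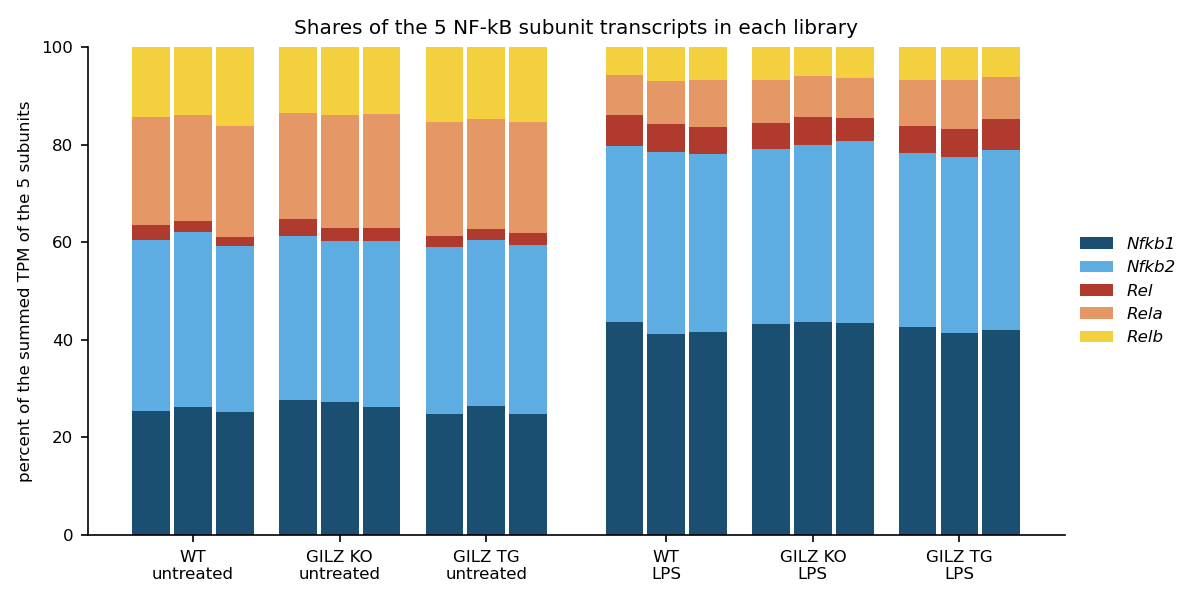
Percent of the summed TPM of the 5 subunits (y axis) in each of the 18 libraries, 1 bar per library and 3 per group. Nfkb1 takes 24.7 to 27.6% of a bar without LPS and 41.2 to 43.7% with it, and Rela and Relb together shrink in every LPS bar.

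Of the cytoplasmic inhibitors, Nfkbia encodes IkB alpha, the fast feedback inhibitor of NF-kB, and was the most abundant of the 10 transcripts in all 6 groups. It measured 251, 265 and 297 TPM in untreated WT, 251, 274 and 278 in GILZ KO and 247, 267 and 298 in GILZ TG. LPS brought it to 981, 973 and 957 TPM in WT, 963, 937 and 955 in GILZ KO and 971, 975 and 1064 in GILZ TG. The 3 genotypes overlapped without LPS, and with it GILZ TG lay just above GILZ KO. The fold change was 5.53 in WT (log2 2.47 ± 0.10 SE), 5.53 in GILZ KO and 5.75 in GILZ TG. Nfkbib, which encodes IkB beta, went from 44.8 to 53.9 TPM to 162 to 182 TPM. By TMM, it rose 4.93-fold in WT, 5.41-fold in GILZ KO and 5.14-fold in GILZ TG. Nfkbie, the gene of IkB epsilon, went from 32.7 to 50.3 TPM to 97.4 to 119 TPM. Its fold changes by TMM were 4.06, 4.25 and 4.03 in the same order. Within the 3 genes the share of Nfkbia rose from 72.3 to 76.5% to 76.6 to 78.6% and that of Nfkbie fell from 9.87 to 12.6% to 7.92 to 9.02% (exact permutation test, p = 0.00025 each), while that of Nfkbib did not pass (adjusted p = 0.123, exact permutation test). Their sum relative to that of the 5 subunits ranged from 1.08 to 1.39 untreated and from 1.18 to 1.4 with LPS. These ranges overlapped, and the difference in favor of LPS was small, 0.12 on the log2 scale (adjusted p = 0.0426, exact permutation test; 0.15 in WT, 0.03 in GILZ KO and 0.18 in GILZ TG). It was 0.06 and did not pass without GILZ TG libraries 1 and 2 (adjusted p = 0.151, exact permutation test), whereas the 9 measures at the smallest p stayed there.

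The nuclear members act with p50 or p52 dimers on chromatin. Nfkbiz encodes IkB zeta, a co-activator of secondary response genes such as Il6. Its transcript stood at 7.56, 8.54 and 9.07 TPM in untreated WT, 7.93, 8.19 and 7.46 in GILZ KO and 9.16, 9.71 and 9.75 in GILZ TG. With LPS it stood at 199, 195 and 214 TPM in WT, 192, 218 and 192 in GILZ KO and 210, 208 and 252 in GILZ TG. Among the 10 genes this was the largest response in each genotype. By TMM, it was 37.7-fold in WT (log2 5.24 ± 0.11 SE), 39.5-fold in GILZ KO and 36.0-fold in GILZ TG. In WT, 1.92% of genes ranked at or above it. Bcl3, an atypical IkB that can repress or activate p50 and p52 targets, went from 27.9 to 35.5 TPM to 62.3 to 88.6 TPM. Its fold changes by TMM were 3.54, 3.77 and 3.58. Bcl3 was above Nfkbiz in all untreated libraries and below it in all LPS libraries, the ratio of Nfkbiz to Bcl3 being 0.233 to 0.289 and then 2.16 to 3.20 (p = 0.00025, exact permutation test).

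In the order of levels in WT, untreated BMMs had Nfkbia at 271 ± 23.5 TPM (SD, n = 3), then Nfkb2, Nfkb1, Rela, Nfkbib, Relb, Nfkbie and Bcl3 (33.5 ± 0.957 TPM), each clear of the next, and last Nfkbiz and Rel, which overlapped. After LPS the order was Nfkbia at 970 ± 12.1 TPM, Nfkb1, Nfkb2, Nfkbiz, Nfkbib and Nfkbie, each clear of the next, followed by Rela, Bcl3, Relb and Rel (54.0 ± 5.93 TPM), each of which overlapped with the next. The first 6 places after LPS were the same in GILZ KO and GILZ TG. Overlaps at rest differed slightly, as Relb and Nfkbie overlapped in both of these genotypes.

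To ask whether GILZ altered these levels, genotypes were compared within each treatment. The 3 comparisons of a treatment share libraries, so they are not independent of each other. None of the 10 genes passed in any of the 6 comparisons with edgeR, and the largest difference was 1.25-fold. In GILZ KO against WT without LPS, 0.0951% of 12621 genes passed at all. Before adjustment 2 of 10 had p under 0.05, against 9.60% of all genes, DESeq2 called 0 (0.626% of all genes), and the groups did not overlap for 1 of 10, against 17.2%. That gene was Relb, at 37.1, 42.0 and 42.3 TPM in GILZ KO and 44.3, 43.3 and 45.3 in WT, with a log2 difference of -0.17 ± 0.07 SE (edgeR adjusted p = 0.477). Nfkbib had 47.3, 44.8 and 52.9 TPM against 53.2, 52.4 and 53.0 in WT, a log2 difference of -0.17 (adjusted p = 0.486, edgeR) with overlapping groups. The 95% confidence intervals of the 10 genes spanned -0.39 to 0.58, the widest being that of Rel.

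GILZ TG against WT without LPS gave 0 calls among the 10 genes with edgeR and with DESeq2, where 0.642% and 2.47% of genes passed. At an unadjusted p under 0.05 there was 1 gene (14.1% of all genes), and groups without overlap were found for 3 (14.9% of all genes). Nfkbiz was 0.20 ± 0.09 SE higher on the log2 scale (adjusted p = 0.339, edgeR) and 0.25 higher without GILZ TG libraries 1 and 2. Rela and Relb, also without overlap, differed by 0.09 and 0.07, and by 0.04 and 0.05 without these libraries. Intervals over the 10 genes ran from -0.42 to 0.43.

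GILZ KO and GILZ TG without LPS formed the contrast with the most members near the threshold, and 4.94% of all genes passed in it. Here 0 of 10 passed with edgeR and 1 with DESeq2, which called 9.65% of all genes, so that 1 of 10 is close to its background. Before adjustment, 5 had an unadjusted p under 0.05 (24.6% of all genes), and 4 showed no overlap (28.7%). Relb was at 37.1, 42.0 and 42.3 TPM in GILZ KO and at 48.6, 46.9 and 45.5 in GILZ TG, a log2 difference of -0.25 ± 0.07 SE. The adjusted p was 0.0589 with edgeR and 0.0207 with DESeq2, and without GILZ TG libraries 1 and 2 the difference was -0.22 (adjusted p = 0.290, edgeR). Nfkbiz had 7.93, 8.19 and 7.46 TPM against 9.16, 9.71 and 9.75, a difference of -0.32 ± 0.09 SE (adjusted p = 0.0689, edgeR), and of -0.36 without the 2 libraries. Bcl3 differed by -0.23 (adjusted p = 0.0786, edgeR), Nfkbie by -0.31 (0.128) and Nfkb2 by -0.13 (0.176). Without the 2 libraries these differences were -0.26, -0.51 and -0.12. Nfkbie thus depended most on which GILZ TG libraries were used, as library 3 had 50.3 TPM and the others 43.1 and 39.7. Rel alone was higher in GILZ KO, by 0.22 ± 0.18 SE with no overlap (adjusted p = 0.467, edgeR), and by 0.25 without the 2 libraries.

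After LPS, GILZ KO against WT gave 0 calls with edgeR and DESeq2 (0.0822% and 0.822% of 12164 genes passed) and 0 genes with an unadjusted p under 0.05 (9.63% of all genes). Nfkb1 and Nfkb2 did not overlap (2 of 10, against 16.3%). They were 0.11 ± 0.08 SE and 0.11 ± 0.07 SE higher in GILZ KO on the log2 scale, with an edgeR adjusted p of 0.690 and 0.666. Intervals over the 10 genes ran from -0.33 to 0.28, so that a 2-fold change lay outside all of them.

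In GILZ TG against WT after LPS, 0 of 10 genes passed with edgeR and DESeq2 (0.460% and 2.25% of all genes), 2 had an unadjusted p under 0.05 (15.2%), and 1 showed no overlap (15.2%). Nfkbie stood at 114, 112 and 119 TPM in GILZ TG and 99.1, 104 and 104 in WT, a log2 difference of 0.17 ± 0.06 SE (edgeR adjusted p = 0.219), and of 0.25 without GILZ TG libraries 1 and 2. Rela was 0.16 ± 0.06 SE higher (adjusted p = 0.222, edgeR), and 0.12 without them. For GILZ KO against GILZ TG, where 2.60% of genes passed, edgeR called 0 of 10. DESeq2 called 1, Nfkbie, and 5.88% of all genes. At an unadjusted p under 0.05 there was Nfkbie alone (19.1% of all genes), and 3 showed no overlap (20.6%). Nfkbie had 101, 97.4 and 101 TPM in GILZ KO, all below GILZ TG, a difference of -0.21 ± 0.06 SE with an adjusted p of 0.0952 with edgeR and 0.0470 with DESeq2, and of -0.30 without the 2 libraries (0.231 with edgeR). Nfkbia (-0.09, and -0.21 without them) and Nfkb1 (0.04) were the others without overlap. Nfkb1 changed sign to -0.09 without GILZ TG libraries 1 and 2 and to -0.01 without library 2 alone.

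**Figure D4:**
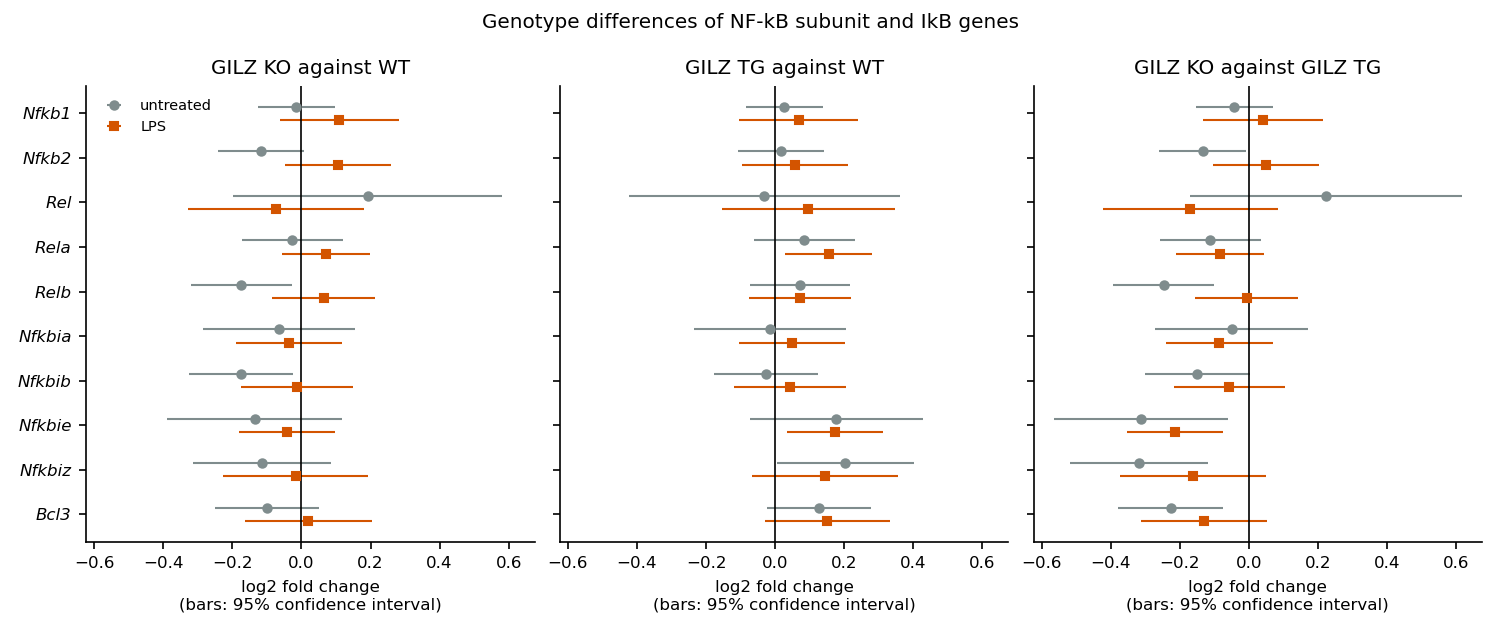
log2 difference between genotypes (x axis) for the 10 genes, untreated (circles) and after LPS (squares); bars are 95% confidence intervals from edgeR fits of the 9 libraries of a treatment. Every point lies between -0.32 and 0.22, and no gene passed the adjusted threshold.

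The LPS responses themselves were also compared between genotypes. With edgeR and with DESeq2, 0 of 10 genes passed in each of the 3 comparisons, in which 0.0152%, 0.00759% and 0.121% of 13169 genes passed for GILZ KO against WT, GILZ TG against WT and GILZ KO against GILZ TG. With DESeq2 these shares were 0.159%, 0.0152% and 0.995%. At an unadjusted p under 0.05 there were 2, 0 and 1 of 10, against 6.36%, 3.09% and 9.92% of all genes. The response of Relb was 0.21 ± 0.09 SE larger in GILZ KO than in WT (adjusted p = 0.721, edgeR) and 0.22 ± 0.09 SE larger than in GILZ TG (adjusted p = 0.390, edgeR), or 0.20 without GILZ TG libraries 1 and 2. That of Nfkb2 was 0.20 ± 0.09 SE larger in GILZ KO than in WT (adjusted p = 0.776, edgeR). The widest interval was that of Rel in GILZ KO against GILZ TG, from -0.89 to 0.06, and the intervals of the 10 genes lay between -0.89 and 0.60. Without GILZ TG libraries 1 and 2 the differences ran from -0.66 to 0.20 for GILZ KO against GILZ TG and from -0.11 to 0.37 for GILZ TG against WT.

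Other genes of the pathway were read from 2 lists. The IkB kinases, their adaptors and further regulators of NF-kB comprised 23 genes, all tested. With LPS, 15 rose and 4 fell in WT, 14 and 4 in GILZ KO, and 15 and 5 in GILZ TG (13 and 5 without libraries 1 and 2). Over all genes, 35.1%, 35.4% and 35.1% passed as lower. The list had median log2 fold changes of 0.63, 0.49 and 0.58. On log2(TPM + 1) these counts were 9 and 8, 9 and 11, and 9 and 10. On that scale 2114 of all 13169 genes passed as higher and 8556 as lower in WT. The numbers were 2015 and 8702 in GILZ KO, and 2050 and 8588 in GILZ TG. Of the listed genes that rose by TMM, 3, 3 and 4 had a negative value on log2(TPM + 1). The largest rises in WT were those of Tnfaip3 (log2 4.11 ± 0.10 SE), the ubiquitin-editing inhibitor A20, Tab2 (2.01 ± 0.08 SE), an adaptor of the kinase TAK1, and Tnip1 (1.99 ± 0.07 SE), a binding partner of A20. Map3k14, the NIK kinase of the alternative pathway, had a log2 change of -1.64 ± 0.11 SE by TMM and -2.05 on log2(TPM + 1). Its level in WT was 14.3 ± 0.539 TPM untreated and 2.70 ± 0.367 TPM with LPS (SD, n = 3). Tab1 fell by 1.27 and Nkrf, a nuclear repressor of NF-kB target genes, by 1.02. These 6 genes kept their direction on log2(TPM + 1). Of the kinase subunits, Ikbkb, Ikbkg and Chuk had 0.88, 0.63 and 0.46 by TMM, but 0.17, 0.18 and -0.26 on log2(TPM + 1). None of the 23 passed in a genotype comparison or a difference of responses (edgeR). Counts at an unadjusted p under 0.05 follow for GILZ KO against WT, GILZ TG against WT and GILZ KO against GILZ TG. They were 0, 0 and 5 without LPS (9.60%, 14.1% and 24.6% of all genes) and 4, 4 and 6 after it (9.63%, 15.2% and 19.1%). For the responses they were 3, 2 and 5 (6.36%, 3.09% and 9.92%). DESeq2 called 3 of the 23 between untreated GILZ KO and GILZ TG and 2 between these genotypes after LPS. It called 1 between GILZ TG and WT after LPS. The shares of all genes were 9.65%, 5.88% and 2.25%, so these DESeq2 counts lie near the background. The genes, named after their values were seen, went in both directions. In untreated GILZ KO against GILZ TG, DESeq2 gave log2 differences of 0.21 for Cyld, a deubiquitinase, -0.34 for Nfkbid, a further nuclear IkB gene, and -0.46 for Nfkbil1 (edgeR adjusted p = 0.0719, 0.0551 and 0.0602). After LPS it gave 0.39 for Pdlim2 and -0.31 for Nkiras2, and 0.34 for Nkiras2 in GILZ TG against WT (edgeR adjusted p = 0.0549, 0.0542 and 0.0702). With GILZ TG library 3 alone, edgeR gave 0.12, -0.48, -0.65, 0.46, -0.28 and 0.32 in the same order.

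The 20 textbook NF-kB target genes in macrophages rose with LPS in all 3 genotypes, on both scales, with median log2 fold changes of 6.17 in WT, 6.31 in GILZ KO and 5.48 in GILZ TG (5.75 without libraries 1 and 2). Nos2, Il6 and Ccl5 led in WT at 11.91, 11.53 and 11.05. Between genotypes, 0 passed against WT in either treatment with edgeR. At an unadjusted p under 0.05 there were 2 and 5 of 16 tested without LPS for GILZ KO and GILZ TG (9.60% and 14.1% of all genes). After LPS there were 4 and 4 of 20 (9.63% and 15.2%). DESeq2 called 1 in untreated GILZ TG against WT (2.47% of all genes) and 3 after LPS (2.25%). Untreated, Ccl4 had a log2 difference of 0.525 (adjusted p = 0.0144, DESeq2). After LPS the differences were -0.89 for Il12b, 0.32 for Icam1 and 0.33 for Irf1 (adjusted p = 0.000165, 6.81e-06 and 0.0336, DESeq2). With GILZ TG library 3 alone, edgeR gave 0.67, -1.36, 0.30 and 0.20 in the same order. Ptgs2, at 0.11 after LPS, was 0.70 with that library alone (edgeR). For GILZ KO against GILZ TG, DESeq2 called 2 without LPS (9.65%), as edgeR did (4.94%). After LPS, DESeq2 called 6 (5.88%), 4 higher and 2 lower, and edgeR called 3 (2.60%). Those called by DESeq2 only were Sod2, Cxcl1 and Icam1, with log2 differences of 0.40, 0.84 and -0.26 (edgeR adjusted p = 0.0665, 0.0535 and 0.0543). With GILZ TG library 3 alone, edgeR gave 0.155, 0.459 and -0.231 for these genes. In untreated GILZ KO against GILZ TG (16 genes tested), the chemokine genes Ccl3 and Ccl4 had log2 differences of -0.42 ± 0.08 SE and -0.61 ± 0.14 SE (adjusted p = 0.0234 and 0.0416, edgeR). With GILZ TG library 3 alone the differences were larger, -0.53 and -0.75, but did not pass (adjusted p = 0.0943 and 0.133, edgeR). After LPS, Il12b, a subunit gene of interleukin 12, had 48.7 ± 6.78 TPM in GILZ KO and 17.8 ± 5.12 in GILZ TG (SD, n = 3), a log2 difference of 1.43, and of 1.91 with GILZ TG library 3 alone (edgeR adjusted p = 0.00585 and 0.00463). Csf2, the gene of GM-CSF, had 18.2 ± 3.55 and 4.59 ± 2.99 TPM, a log2 difference of 2.05 (edgeR adjusted p = 0.0183) that was 1.14 with library 3 alone (0.168). The transcription factor gene Irf1 had 369 ± 22.9 and 504 ± 43.8 TPM, a difference of -0.45 (edgeR adjusted p = 0.0323) that was -0.33 with library 3 alone (0.362). None of the 20 passed in a difference of responses (edgeR). At an unadjusted p under 0.05 there were 3 and 3 in GILZ KO and GILZ TG against WT (6.36% and 3.09% of all genes). In GILZ KO against GILZ TG there were 9 (9.92%). DESeq2 called 1, Icam1 in GILZ TG against WT (0.0152% of all genes), with a log2 difference of 0.36. With GILZ TG library 3 alone it was 0.37 (edgeR).

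The genes with a pattern most like that of each member were sought over the 18 libraries among 9383 genes with a mean of at least 5 TPM, by the root mean square difference of centred log2(TPM + 1). The closest were Prpf38a and Rbm43 to Nfkbia (0.07 each), Atg16l1 and Cct3 to Rela (0.08 each), and H2-Q4 and Psme2 to Nfkbib (0.07 and 0.08). Nfkb2 was closest to Bst2 and H2-Q4 (0.09 each), Relb to Ube2f and Atp6v1e1 (0.09 each), and Nfkb1 to N4bp1 and Tap2 (0.10 each). Nfkbie had H3f3b and Trmt61b (0.10 and 0.11), and Bcl3 had Dbnl and Usf1 (0.12 and 0.13). Rel had Znfx1 and Cemip2 (0.13 and 0.14), and Nfkbiz had Daxx and Adora2a (0.12 and 0.18). Adora2a had a mean of 0.282 TPM untreated and 25.7 with LPS. At so low a level the added 1 shrinks the change, so its likeness to Nfkbiz holds on this scale and not for the ratio of TPM.

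The counts behind the 10 genes were ample, from 200 for Rel to 31986 for Nfkbia in a library. The posterior SD of the count listed in the files was 0 for each. Whether this means that the counting split no reads between them and other genes was not tested. Annotated genes overlap Nfkb1, Nfkb2, Nfkbib and Bcl3. The strand setting of the counting is not given in the sources used here, and whether reads of such a neighbour were counted for these 4 genes was not tested.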

How the data were processed

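RNA from 18 libraries of mouse BMMs, 3 per genotype and treatment, was prepared with poly(A) selection and a directional kit and sequenced in 75 nt single reads. The authors mapped the reads to GRCm38 with the grape-nf pipeline. Per the file headers, the deposited tables hold for each gene an expected count, which is an unnormalized read estimate, the TPM and a posterior SD, in the layout of RSEM. The quality control and the authors' own tests used FastQC 0.11.2 and DESeq2 1.40.2 per the labels. The authors' deposited tables of fold changes and p-values were used for gene symbols alone.

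After rounding of the expected counts, genes were filtered with filterByExpr and scaled by TMM. Tests were quasi-likelihood F tests (R 4.3.3, edgeR 4.0.16). LPS responses and their differences were tested in 1 fit of 18 libraries with 6 groups, and genotypes in the 9 libraries of a treatment. P-values were adjusted by Benjamini-Hochberg over all genes tested, with a threshold of 0.05. Standard errors were derived from the F statistic. Shares were tested with exact permutation tests, which were added after seeing the data. The 10 genes, the pathway and marker lists, the rule for named genes and the alternatives were chosen with earlier results of these data known. In genotype comparisons and differences of responses, a gene was named if its adjusted or unadjusted p was under 0.05 or its groups did not overlap. From the lists, genes past the threshold between genotypes and the 3 largest LPS changes in each direction in WT were named. Alternatives were DESeq2 1.42.0, limma 3.58.1 on log2(TPM + 1) and log2(TPM + 0.1), other normalization, filters and threshold, other sets of libraries, and a replicate block. The tests were checked on simulated counts in which 200 genes changed by a log2 of 1, with the same spread for all genes. Of these, 196 were called for LPS against untreated in WT and 197 for untreated GILZ KO against WT. Unchanged genes called numbered 12 and 7. Smaller differences, such as those between genotypes here, and libraries that stand apart were not simulated. The 3 libraries of a group are independent preparations per the study, and differed by more than sampling noise within every group. Whether untreated and LPS libraries with the same number share a mouse is not stated, and the main LPS tests took them as unpaired. Intervals reflect the spread between libraries as well as depth, and are at the 95% level. Promoter windows came from RefSeq, and plots were made in Python 3.11.15 (matplotlib 3.10.9).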

Additional observations from a re-analysis of the deposited data

How the results depend on the processing

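The LPS responses were called for 10 of 10 genes in each genotype under all 46 alternatives, and the 460 single values kept their direction and their call. The differences of LPS responses gave 0 calls in all 62 alternatives. Of 100 alternatives to the genotype comparisons, 6 gave 1 call where edgeR gave 0. For GILZ KO against GILZ TG without LPS these were Relb with DESeq2 (1 call), with all 18 libraries in 1 fit (1), with at least 10 counts in every library (1) and with no filter (1), and Nfkbiz with only the 6 libraries compared (1). After LPS it was Nfkbie with DESeq2 (1). The cause was not tested. Leaving out 1 library at a time gave 0 in all genotype comparisons and 10 in all LPS comparisons. Nfkb1 in GILZ KO against GILZ TG after LPS, 0.04 on the log2 scale, ranged from -0.012 to 0.112 when 1 library was left out, the former without GILZ TG replicate 2, and turned to -0.094 without GILZ TG libraries 1 and 2 (1 GILZ TG library left), the latter chosen after seeing the data.

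With a replicate block, the count of calls was 10 in each LPS comparison and 0 in all others, so the block changed no call. In the fits of 18 libraries the block paired the untreated and LPS libraries of a genotype that have the same number. In the genotype comparisons the block was the replicate number, shared across genotypes. The numbers share no stated animal. Deviations from the group means of untreated and LPS libraries with the same number correlated above 0.1 in 4 of 9 pairs (-0.03 to 0.61), and those of different genotypes in 2 of 18 pairs (-0.14 to 0.24). With 3 libraries per group, differences between genotypes of the size seen for Rel (SE 0.18 at rest) are not resolved.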
